A study of Mus musculus with 6 samples.

Results

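The table of heart transcripts was searched for histone genes, by symbol, among its protein-coding entries. The search found 52 genes with 55 transcripts, of 8969 protein-coding genes and 11745 protein-coding transcripts. Of these, 45 were replication-dependent genes, named for the histone clusters (Hist1 to Hist4). The other 7 had names outside the clusters and were grouped as replacement histones: H1f0, H1fx, H2afj, H3f3a, H3f3b, H2al1m and H2al3. The last 2 are histone H2A variants known from testis. The symbols searched included all that start with H2a, and no H2A.Z, H2A.X or macroH2A gene was found by the search.

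Histones package DNA into nucleosomes, in which DNA winds around an octamer of H2A, H2B, H3 and H4, and linker histone H1 binds where the DNA enters and leaves. Replication-dependent histone genes are transcribed mainly in S phase, and their canonical mRNAs end in a conserved stem-loop instead of a poly(A) tail. Replacement histones such as H3.3 (H3f3a, H3f3b) and H1.0 (H1f0) are made throughout the cell cycle from polyadenylated mRNAs and are deposited without DNA replication. Most cardiomyocytes of an adult heart no longer divide. Cluster genes can also give polyadenylated transcripts, known from differentiated cells.

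All 6 hearts came from male mice and were isolated and perfused by the Langendorff method, in which the coronary vessels are fed through the aorta. Contraction continued in the 3 Sham hearts. In the 3 I/R hearts (ischaemia and reperfusion) the beat was arrested with a cardioplegic solution for 30 min, and reperfusion then lasted 1 h. The labels give each heart as a biological replicate and give no strain or age, and all libraries were made from RNA selected for poly(A). The values are FPKM, fragments scaled by transcript length and by library total, so that levels of different genes are compared per length.

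Library totals for protein-coding transcripts, recovered from the FPKM, ranged from 7233171 to 9902397 reads, and the transcripts listed held 36.8% to 39.9% of them. How much of each gene its listed transcripts cover is not known. The 7 of 8 cardiomyocyte markers in the table (such as Myl2 and Ttn) were present, at a sum of 578 to 654 FPKM in Sham against 442 to 508 in I/R. All 7 were lower in I/R, with a median log2 difference of -0.41. The 5 fibroblast markers in the table summed to 129 to 186 FPKM in Sham against 208 to 219 in I/R, and Col1a2 was listed at 0 in all Sham hearts. Most of this sum was Col1a1 (means of 92.1 and 130 FPKM) and Col3a1 (54.6 and 74.1). Pdgfra was level at 5.47 and 5.46 FPKM, and Dcn was at 2.25 and 5.10, with 9.80 in I/R heart 1. The 4 macrophage markers summed to 885 to 1064 FPKM in Sham against 1096 to 1191 in I/R. The part of these shifts in the results below was not tested, and in whole-heart RNA fewer cells of a type and less RNA per cell cannot be told apart.

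The stretch before the transcript start is shown for 6 of the genes described below, because it differs by histone type. Hist1h4a and Hist2h4, also described below, are not among them. Each is 160 bases of RefSeq sequence (GRCm38.p6) ending at the base before the RefSeq start, read 5′ to 3′ on the gene's strand. Capitals mark CCAAT or its reverse complement ATTGG, and TATAAA or its reverse complement TTTATA. The genes are Hist1h3i (chr13:21783398-21783557, minus strand), Hist1h3h (chr13:21717468-21717627, plus strand), Hist1h3g (chr13:23535258-23535417, plus strand), Hist2h2ac (chr3:96220881-96221040, minus strand), Hist1h4n (chr13:21832198-21832357, minus strand) and H1f0 (chr15:79028052-79028211, plus strand).
Hist1h3i: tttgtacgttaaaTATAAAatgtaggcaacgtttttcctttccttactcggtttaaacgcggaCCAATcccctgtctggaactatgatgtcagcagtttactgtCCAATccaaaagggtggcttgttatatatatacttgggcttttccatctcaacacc
Hist1h3h: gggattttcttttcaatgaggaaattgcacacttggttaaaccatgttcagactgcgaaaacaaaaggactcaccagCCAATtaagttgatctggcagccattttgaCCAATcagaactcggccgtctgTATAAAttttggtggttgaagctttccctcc
Hist1h3g: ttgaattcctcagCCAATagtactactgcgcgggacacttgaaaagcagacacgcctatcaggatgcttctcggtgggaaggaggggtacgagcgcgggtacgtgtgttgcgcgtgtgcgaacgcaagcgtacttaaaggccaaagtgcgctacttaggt
Hist2h2ac: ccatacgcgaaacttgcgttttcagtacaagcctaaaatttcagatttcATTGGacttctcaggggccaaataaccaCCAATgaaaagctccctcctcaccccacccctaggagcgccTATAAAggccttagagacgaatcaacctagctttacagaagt
Hist1h4n: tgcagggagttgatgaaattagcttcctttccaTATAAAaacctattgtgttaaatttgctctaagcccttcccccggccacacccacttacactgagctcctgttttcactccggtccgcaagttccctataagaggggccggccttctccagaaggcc
H1f0: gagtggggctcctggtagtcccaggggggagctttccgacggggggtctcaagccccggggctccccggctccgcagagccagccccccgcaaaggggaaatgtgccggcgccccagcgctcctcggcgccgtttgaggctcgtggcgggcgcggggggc

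Hist1h3i and Hist1h3h, which encode the protein H3.1, carried 2 CCAAT and 1 TATAAA in this stretch, and so did the H2A gene Hist2h2ac. Hist1h3g, another H3.1 gene, carried 1 CCAAT and no TATAAA. In the H4 gene Hist1h4n there was 1 TATAAA and no CCAAT, and H1f0 had no match to either.

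Over the 250 bases before the start, searched on both strands, promoter windows were found for 47 of the 52 genes. CCAAT was present in 4 of 4 H1, 11 of 11 H2A, 7 of 7 H2B and 7 of 8 H3 genes of the clusters (the exception was Hist2h3c2). Only 3 of 10 H4 genes had it, and 33.8% of all 32851 windows. TATAAA was present in 21 of 40 replication-dependent genes (52.5%) and 12.4% of all windows. The octamer core TTTGCAT (reverse complement ATGCAAA), a motif known from H2B promoters, was present in 4 of 7 H2B and 4 of 11 H2A genes. It was present in 9 of 40 replication-dependent genes and 4.12% of all windows. The motifs were not particular to cluster genes: among replacement genes, CCAAT was in 3 of 7, TATAAA in 2 of 7 and TTTGCAT in 2 of 7. A match is a description of the letters, and no match does not speak about a factor.

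Histone transcripts were measured in every heart at a low share of reads. The 52 genes held 0.189% to 0.213% of the reads on listed protein-coding transcripts, or 20383 reads in Sham and 19060 in I/R. Replication-dependent genes were not rare in this poly(A) RNA: 16 of 45 (35.6%) averaged 10 FPKM or more, and 17.2% of all protein-coding genes did. Their summed FPKM exceeded that of the listed replacement genes in every heart. By reads the gap was smaller, 11910 against 8473 in Sham and 11404 against 7656 in I/R. This compares listed transcripts only: H3f3b was listed at a mean of 0.89 FPKM and no H2A.Z gene was found. Transcripts outside the list would change the sums and shares of the classes. The listed models of 44 of the 45 had 1 exon, and the exception was Hist1h2bc. Cluster genes of a type are near-identical in coding sequence, so the split of reads between them is uncertain for each of them.

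Summed over the 45 replication-dependent genes, the level was 444, 509 and 437 FPKM in Sham hearts 1, 2 and 3 and 590, 501 and 455 FPKM in I/R hearts 1, 2 and 3. Group means were 463 ± 39.9 in Sham against 515 ± 68.5 in I/R (SD, n = 3), a log2 ratio of 0.15. The groups overlapped, and I/R heart 1 alone lay above all Sham hearts. Without that heart the log2 ratio was 0.05. The 7 replacement genes summed to 158, 165 and 138 FPKM in Sham against 165, 138 and 155 FPKM in I/R, means of 154 ± 13.9 and 153 ± 13.7 (SD, n = 3). These also overlapped. Of the summed histone FPKM, the replication-dependent genes held 73.7%, 75.5% and 76.0% in Sham against 78.1%, 78.4% and 74.7% in I/R. No p is given for these sums, because the genes were chosen as a set.

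**Figure D1:**
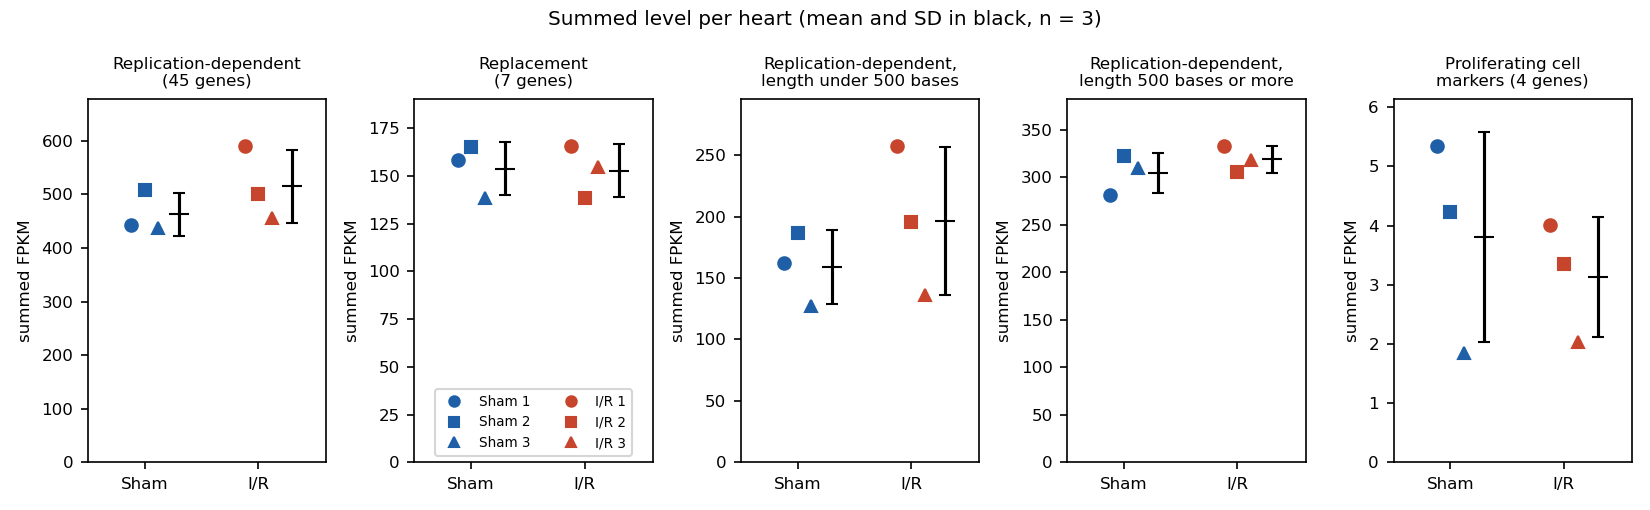
Summed FPKM per heart (vertical axes, each from 0) of 5 gene sets, with circles, squares and triangles for replicates 1, 2 and 3 and the group mean and SD in black (n = 3). Sham and I/R hearts overlapped in the replication-dependent sum (437 to 509 against 455 to 590) and in the replacement sum (138 to 165 in both).

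Among the core types, H4 made up most of the replication-dependent signal, 53.1% ± 1.59 of its FPKM in Sham against 54.5% ± 2.59 in I/R (SD, n = 3). Averaged over the hearts, the 11 H4 genes summed to 264 FPKM, the 11 H2A genes to 99.8, the 10 H3 genes to 65.3, the 9 H2B genes to 34.3 and the 4 H1 genes to 26.3. Nucleosomes hold the core histones in equal number, and the summed FPKM of the listed genes was not in that ratio. By reads over all hearts, H4 also led, with 13376, against 2744 for H2A, 2564 for H2B and 2129 for H3. H2A, H2B and H3 thus lay closer together by reads than by FPKM, which is scaled by the length of each listed model.

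Between I/R and Sham hearts, no histone gene differed beyond the replicate error after adjustment. The limma test was run on log2(FPKM + 1) over every gene averaging 0.5 FPKM or more. It called 0 of the 45 histone genes that passed this filter at an adjusted p under 0.05 (adjusted p from 0.496 to 0.998), and 0 of all 12114 genes tested (0%). At an unadjusted p under 0.05 limma counted 2 of 45, Hist1h3i and Hist1h4a, both higher in I/R, against 5.1% of all 5041 protein-coding genes tested (173 higher, 84 lower). The count was 0 of 45 without Sham heart 3, and 4 without Sham heart 2 or I/R heart 3. Without Sham heart 1 it was 3, all lower in I/R. Limma voom on the recovered reads also called 0 of 45 after adjustment. Its count at an unadjusted p under 0.05 was 3. Over all 12114 genes, such counts were 1023 with all hearts, 835 without Sham heart 3 and 860 without Sham heart 1. They were 1025 without Sham heart 2, 1021 without I/R heart 3 and 1012 with limma voom. Differences are I/R minus Sham on the log2(FPKM + 1) scale, which compresses differences between low values, and they are given ± SE.

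By direction, 27 of the 45 were higher and 18 lower in I/R, with a median of 0.10, beside 54.9% higher and a median of 0.02 over all protein-coding genes tested. The 39 replication-dependent genes tested split 25 to 14 (median 0.11) and the 6 replacement genes 2 to 4 (median -0.15). Without Sham heart 3 or without I/R heart 1, 22 of 45 were higher. All I/R hearts lay above all Sham hearts for 4 of 45, namely Hist1h3i, Hist1h4b, Hist1h2bg and H3f3a, where 8.83% of protein-coding genes did so. All I/R hearts lay below all Sham hearts for 0 of 45, against a background of 5.12%. The 7 genes under the filter (Hist1h1t, Hist1h2ag, Hist1h2bh, Hist1h2bf, Hist1h3c, Hist1h3a and H2al3) had means of 0.05 to 0.43 FPKM. Hist1h2an, at 0.56 FPKM, was the lowest gene tested.

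**Figure D2:**
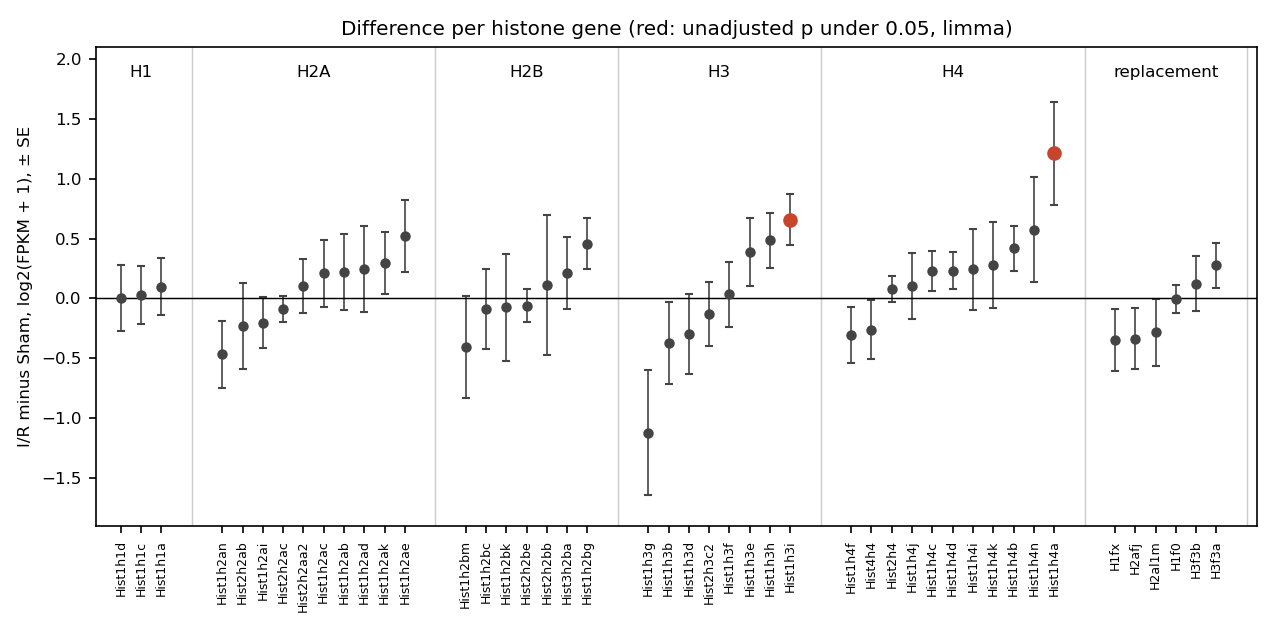
Difference of each of the 45 histone genes tested (vertical axis, I/R minus Sham in log2(FPKM + 1), ± SE from limma), grouped by histone type and ordered by size within a group. Red marks Hist1h3i (0.66) and Hist1h4a (1.21), the 2 genes with an unadjusted p under 0.05, and the lowest value was that of Hist1h3g (-1.12), which did not reach it.

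Linker histones ranged from the most abundant histone gene to one under the filter. H1f0 (ENSMUSG00000096210, chr15:79028450-79030504 in GRCm38, plus strand) encodes H1.0, the linker variant typical of cells that have stopped dividing. Its level was 146, 153 and 127 FPKM in Sham against 154, 126 and 144 FPKM in I/R. It had 7894 reads in the 3 Sham hearts together and 7050 in the 3 I/R hearts. The groups overlapped throughout, and the difference was -0.01 ± 0.12 (limma, adjusted p = 0.994). H1f0 alone carried most of the replacement sum, and the other 6 genes summed to 10.7 to 12.5 FPKM in Sham against 10.7 to 12.1 in I/R.

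Of the cluster H1 genes, Hist1h1c (H1.2) was at 15.7, 17.9 and 14.1 FPKM in Sham against 19.8, 11 and 19.5 in I/R. Hist1h1a (H1.1) was at 7.77, 8.54 and 4.66 FPKM in Sham against 8.25, 7.13 and 6.72 in I/R. Hist1h1d (H1.3) ranged from 1.69 to 2.81 FPKM in Sham and from 1.54 to 3.43 in I/R. In all 3 the groups overlapped. The listed model of Hist1h1d was 7425 bases long, against 741 for Hist1h1a, and had 909 reads over the hearts against 276. Hist1h1t, the testis linker histone, had 11 reads in the 3 Sham hearts together and 6 in the 3 I/R hearts. H1fx (H1.10) was at 1.99, 2.64 and 2.04 FPKM in Sham against 1.82, 2.12 and 0.84 in I/R, a difference of -0.34 ± 0.26. On the opposite strand the lncRNA Gm5577 covers 755 bases of it and was far higher, at means of 498 FPKM in Sham against 454 in I/R on the lncRNA scale. Neither the labels nor the table say whether reads were counted by strand, so reads of the pair cannot be told apart.

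No H2A gene separated the groups. Hist2h2ac (chr3:96220361-96220880, minus strand) was the leading one, at 59.2, 64.4 and 61.9 FPKM in Sham against 54.3, 64.0 and 56.8 in I/R (-0.09 ± 0.11). Next was Hist1h2ak, at 10, 11.3 and 9.50 FPKM in Sham against 17.2, 14.3 and 8.45 in I/R, where I/R held both the highest and the lowest heart. Hist2h2aa2 had 8.42, 9.43 and 13.4 FPKM in Sham against 9.11, 13.6 and 10.9 in I/R, again overlapping. All of its 528 bases lie within the lncRNA Gm20632 on the opposite strand. That lncRNA was at means of 35.1 FPKM in Sham against 27.0 in I/R on its own scale, and reads of the pair cannot be told apart without strand. Hist2h2ab, Hist1h2ad and Hist1h2ab had means of 4.5, 4.28 and 4.05 FPKM over the hearts. Hist1h2ac and Hist1h2ae had means of 1.71 and 1.25 FPKM, and Hist1h2ai and Hist1h2an of 0.64 and 0.56. Of the 10 H2A genes tested 6 were higher and 4 lower in I/R. H2afj, which encodes the variant H2A.J, was at 1.99, 1.93 and 2.2 FPKM in Sham against 2.2, 0.8 and 1.4 in I/R (-0.34 ± 0.26). The 3 Sham hearts lay close together and I/R heart 1 lay just above them.

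Among the H2B genes, Hist2h2be was highest and steady, at 16.1, 14.5 and 15.6 FPKM in Sham against 16.3, 14.4 and 13.6 in I/R. Hist1h2bg (chr13:23571396-23572013, plus strand) was at 2.29, 3.69 and 2.91 FPKM in Sham against 4.63, 3.82 and 4.75 in I/R, and the groups did not overlap. The difference was 0.46 ± 0.21 (limma, adjusted p = 0.610), from 49 and 66 reads. Hist1h2bk was at 6.58, 9.80 and 3.19 FPKM in Sham against 8.20, 7.08 and 2.95 in I/R, with heart 3 lowest in both groups. Hist1h2bm was at 5.40, 5.34 and 4.49 FPKM in Sham against 6.45, 1.29 and 4.63 in I/R, where I/R heart 2 stood apart. Hist2h2bb ranged from 0.27 to 5.08 FPKM within the Sham hearts alone, and Hist3h2ba and Hist1h2bc had means of 1.25 and 0.82.

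H3 genes lay on both sides, 4 of 8 tested higher and 4 lower in I/R. H3.1 is a replication-dependent protein that differs from H3.2 at a single residue, and H3.3 is the replacement form. Hist1h3i (ENSMUSG00000101972, chr13:21782960-21783370, minus strand), an H3.1 gene, was at 17.9, 27.2 and 16.5 FPKM in Sham against 37.3, 28.2 and 31.7 in I/R. The I/R hearts all lay above the Sham hearts, although I/R heart 2 and Sham heart 2 were close. The difference was 0.66 ± 0.21, from 230 and 323 reads (limma, unadjusted p = 0.0186, adjusted p = 0.496). Hist1h3h, an H3.1 gene of this cluster too, was at 7.13, 11.9 and 8.75 FPKM in Sham against 16.5, 11.2 and 12.1 in I/R (0.49 ± 0.23, adjusted p = 0.622 in limma). There I/R heart 2 lay below Sham heart 2.

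Hist1h3g, also an H3.1 gene, had a lower mean in I/R. It was at 0.76, 3.52 and 4.17 FPKM in Sham against 0, 1.70 and 0.48 in I/R, with 38 reads in the 3 Sham hearts together and 10 in the 3 I/R hearts. The difference was -1.12 ± 0.52 (limma, adjusted p = 0.612), and Sham heart 1 lay within the I/R range. Added up, the 4 H3.1 genes gave 25.8, 43.0 and 29.9 FPKM in Sham against 54.0, 41.1 and 45.5 in I/R, which overlapped.

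The 6 H3.2 genes added up to 22.5, 30.0 and 22.9 FPKM in Sham against 30.3, 20.7 and 25.8 in I/R. Hist1h3e led them, at 8.82, 11.4 and 5.29 FPKM in Sham against 13.5, 9.01 and 10.8 in I/R. Hist2h3c2 had a mean of 6.39 FPKM, Hist1h3f of 4.96, Hist1h3d of 2.45 and Hist1h3b of 1.33. For each of these the groups overlapped.

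For H3.3, H3f3a (ENSMUSG00000060743, chr1:180800832-180813943, minus strand) was at 6.36, 6.17 and 4.61 FPKM in Sham against 6.49, 7.76 and 7.01 in I/R. The groups did not overlap, though I/R heart 1 and Sham heart 1 were close (0.28 ± 0.19, adjusted p = 0.745 in limma). It was the sum of 4 listed transcripts, of which 1, of 2841 bases, held nearly all reads. That transcript was at 4.27, 4.23 and 3.99 FPKM in Sham against 5.68, 5.86 and 6.48 in I/R. Here the gap between the groups was wider than the range within either of them. With each gene represented by its most abundant transcript, H3f3a differed by 0.44 ± 0.16 (limma, adjusted p = 0.538). The lncRNA H3f3aos overlaps 168 bases of the H3f3a locus on the opposite strand. Its means were 10.6 FPKM in Sham against 8.86 in I/R. H3f3b was listed at only 1.21, 0.62 and 0.61 FPKM in Sham against 0.67, 1.25 and 0.97 in I/R.

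H4 genes all encode the same protein, and their listed levels differed widely. Hist2h4 (chr3:96261682-96263311, minus strand) led at 59.7, 62.0 and 65.4 FPKM in Sham against 63.7, 72.1 and 61.9 in I/R (0.08 ± 0.11). Its range overlapped that of Hist2h2ac, and both lay below every H1f0 value. Hist1h4n (chr13:21831767-21832196, minus strand) came next and varied widely, at 26.1, 43.4 and 19.0 FPKM in Sham against 62.6, 52.5 and 22.3 in I/R (0.57 ± 0.44). Hist1h4f was at 41.8, 36.6 and 30.4 FPKM in Sham against 40.9, 25 and 23.5 in I/R (-0.31 ± 0.23). These 2 genes had opposite signs, and the groups overlapped in both.

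Hist1h4d was at 27.0, 25.1 and 22.1 FPKM in Sham against 31.2, 32.4 and 24.4 in I/R (0.23 ± 0.16). Hist1h4i had 17.6, 25.1 and 28.1 FPKM in Sham against 37.6, 16.1 and 34.6 in I/R, and Hist1h4k 29.5, 19.9 and 16.8 against 42.9, 25.6 and 16.4. Their neighbours in the order of means, from Hist1h4n at 37.6 to Hist1h4k at 25.2 FPKM, overlapped over the hearts. Hist4h4 (chr6:136801553-136804415, minus strand), which lies beside H2afj, was at 13, 20.8 and 24.9 FPKM in Sham against 13.4, 17.0 and 16.8 in I/R (-0.26 ± 0.25). Heart 1 was lowest in both groups. Hist1h4c and Hist1h4j had means of 13.2 and 3.38 FPKM with overlapping groups.

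Hist1h4b (chr13:23757013-23757409, plus strand) was at 11.4, 10.7 and 11.8 FPKM in Sham against 18.0, 17.3 and 11.9 in I/R. I/R heart 3 lay just above the Sham hearts and the other two well above them (0.42 ± 0.19, adjusted p = 0.602 in limma). The whole gene lies within the lncRNA 4930558J22Rik on the opposite strand, which was at 11.4, 11.7 and 11.7 FPKM in Sham against 18.0, 18.2 and 11.2 in I/R on its own scale. In the lncRNA, unlike in Hist1h4b, I/R heart 3 was the lowest heart of all 6. The reads of the pair cannot be told apart without strand. Hist1h4a (ENSMUSG00000060093, chr13:23760692-23761230, minus strand) was at 0.38, 1.73 and 0.77 FPKM in Sham against 1.45, 5.42 and 4.27 in I/R, with 14 reads in the 3 Sham hearts together and 50 in the 3 I/R hearts. The difference was 1.21 ± 0.43 (limma, unadjusted p = 0.026, adjusted p = 0.519), and I/R heart 1 lay below Sham heart 2.

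**Figure D3:**
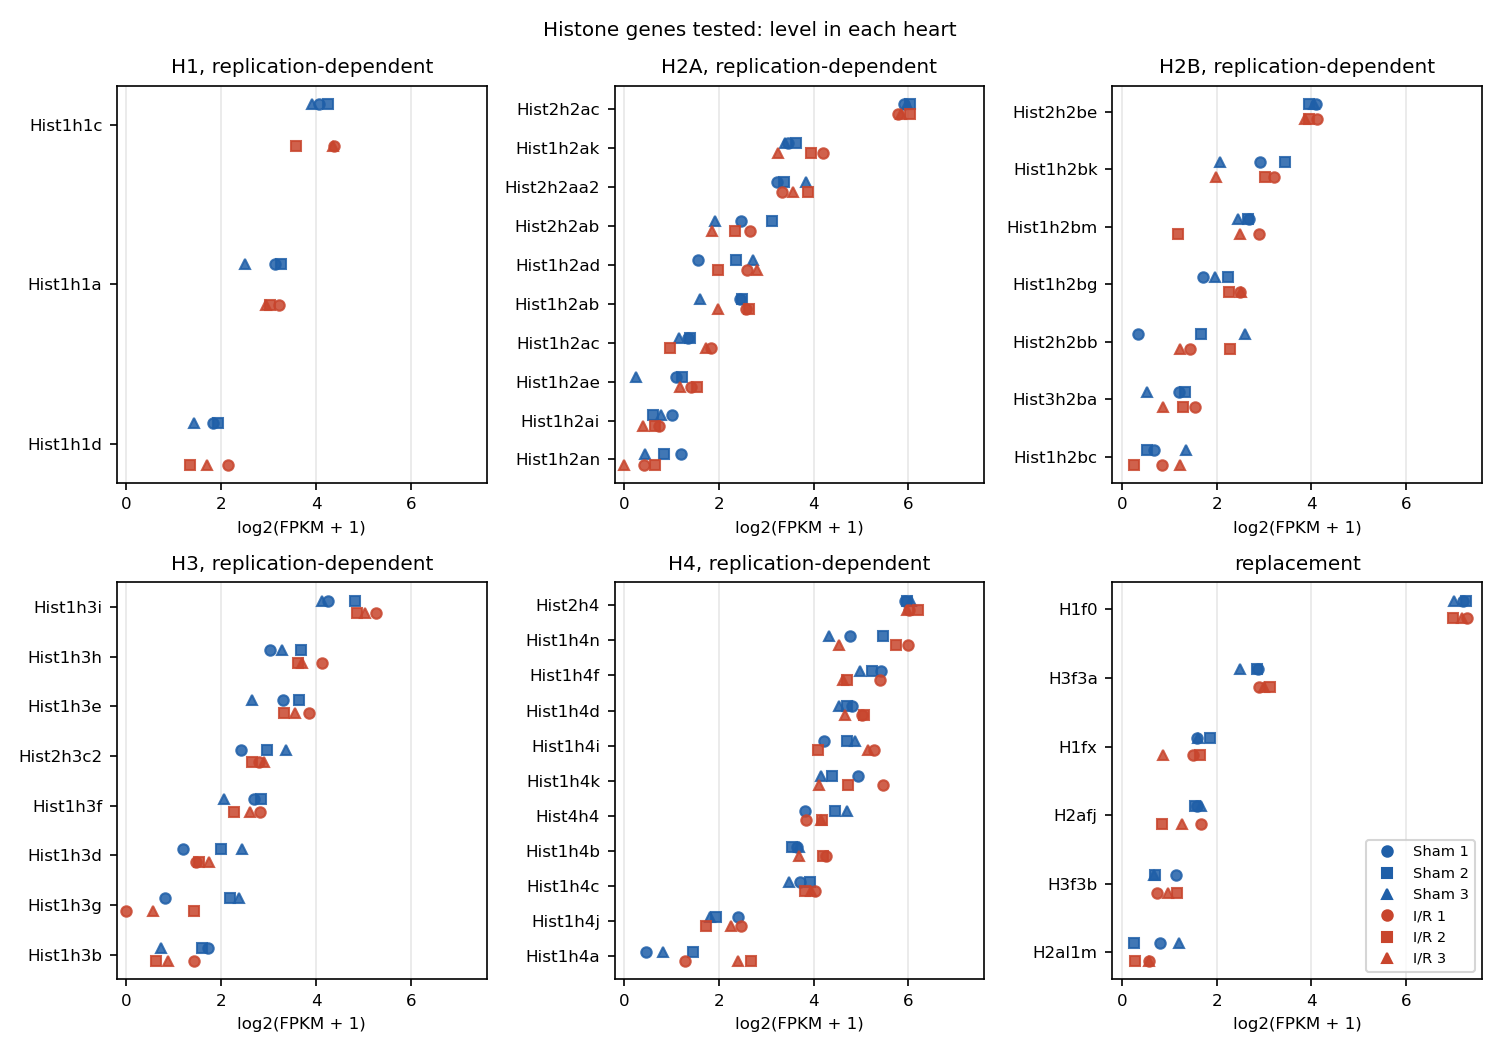
Level of each of the 45 histone genes tested in each heart (horizontal axis, log2(FPKM + 1)), in panels by histone type, with Sham in blue, I/R in red and marker shapes for replicates 1 to 3. H1f0 lies above all others at 126 to 154 FPKM, followed by Hist2h4 and Hist2h2ac, and Hist1h3i shows the 3 I/R hearts (28.2 to 37.3 FPKM) to the right of the Sham hearts (16.5 to 27.2 FPKM).

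By genome position, the 12 genes of a first region of chromosome 13 (chr13:21716422-22042944 in GRCm38) summed to 127, 158 and 110 FPKM in Sham against 235, 160 and 137 in I/R. Hist1h4n and Hist1h3i lie there, and I/R heart 1 was the highest. The 24 genes of a second region (chr13:23535422-23764406) summed to 150, 161 and 128 FPKM in Sham against 184, 145 and 147 in I/R. The 7 genes on chromosome 3 summed to 153, 167 and 174 FPKM in Sham against 156, 177 and 154 in I/R. In none of the 3 regions did the groups separate.

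Many H2A and H2B genes sit head to head and share the sequence between their starts. Of the 4 such pairs with starts under 500 bases apart, Hist2h2ac and Hist2h2be lie 238 bases apart, at means of 60.1 and 15.1 FPKM. The upstream stretch printed for Hist2h2ac lies within this gap. Hist1h2bf and Hist1h2ad, 184 bases apart, had means of 0.05 and 4.28 FPKM. For Hist1h2ae and Hist1h2bg, 175 bases apart, the means were 1.25 and 3.68 FPKM, and for Hist1h2ac and Hist1h2bc, 250 bases apart, 1.71 and 0.82. The listed FPKM, which are scaled by model length, were unequal in each pair. By reads over all hearts, Hist2h2be had more (2025, on a model of 2620 bases) than Hist2h2ac (1605, on 520 bases). In the other pairs the order was the same by reads as by FPKM, and Hist1h2bf had 1 read in all.

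Sums were also taken by the length of the listed model, at a limit of 500 bases chosen after the values were seen, and are a description only. The shortest models span little more than the coding sequence. The 15 replication-dependent genes with shorter models summed to 162, 187 and 127 FPKM in Sham against 257, 195 and 137 in I/R. The 30 genes with longer models summed to 282, 322 and 310 FPKM in Sham against 333, 305 and 319 in I/R. The SD of the short models was 30.1 FPKM in Sham and 60.3 in I/R, with heart 3 lowest in each group. For the long models the SD was 20.7 and 13.8 FPKM, and heart 3 was lowest in neither.

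Heart 3 was lowest in both groups for 12 of the 39 replication-dependent genes tested (30.8%), and for 12.9% of the other 4996 protein-coding genes. Split at 500 bases, this was 8 of 13 genes with short models and 4 of 26 with longer ones. Because that limit followed from the values, the split counts are a description and cannot test a link with model length. Genes of a type also share near-identical coding sequence, so they may not count as independent. Hist1h2an, among the 8, rested on 12 reads over all hearts. Heart 1 was lowest in both groups for 0 of the 13 and 6 of the 26 (23.1%), and for 11.5% of the other protein-coding genes. For heart 3, the share among those others was 12.5% for models under 500 bases and 13% for longer ones. The summed markers of proliferating cells were also lowest in heart 3 of each group. The 4 of 6 in the table (Mki67, Cdk1, Birc5 and Bub1) summed to 5.34, 4.23 and 1.86 FPKM in Sham against 4.01, 3.36 and 2.03 in I/R. Mki67, a protein of cycling cells, was at 2.81, 1.88 and 0.87 FPKM in Sham against 2.60, 1.97 and 1.13 in I/R. It held much of the sum, and the markers did not share the order of hearts. In I/R, heart 3 was not the lowest for Cdk1 (0.371, 0.760 and 0.373 FPKM) or Birc5 (0.741, 0.236 and 0.268). Bub1 was nearly equal in Sham hearts 2 and 3, and Birc5 and Bub1 were under the filter. The part of these markers in the pattern was not tested, and no sample label other than the replicate number ties the hearts numbered 3 together.

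The spread between hearts was set against the error of read counting. Among the 43 histone genes with reads in every heart, the median coefficient of variation between hearts of a group was 31.9%, where the reads alone would give 16.5%. The spread was over 2 times the counting error for 12 genes and under it for 4. Hist2h2ac, at 6.80% against 6.19% from counting, varied hardly more than its reads. H1f0 (9.63% against 2.03%), Hist1h4n (44.3% against 9.54%) and Hist4h4 (23.7% against 4.96%) varied far more.

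**Figure D4:**
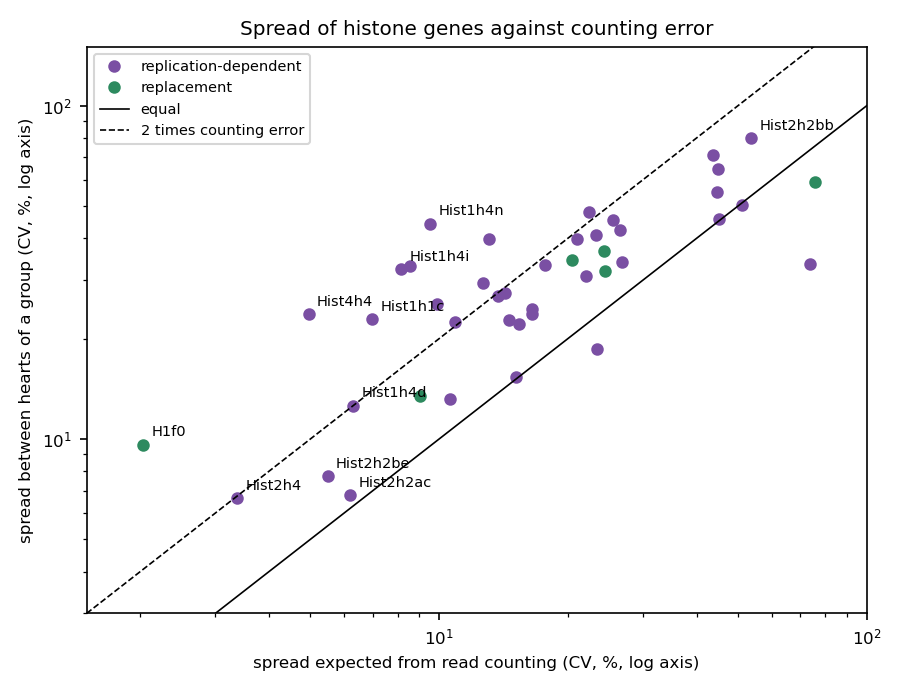
Spread between hearts of a group (vertical axis, coefficient of variation in %, log axis) against the spread that read counting gives (horizontal axis, %, log axis) for the 43 histone genes with reads in every heart. The solid line marks equality and the dashed line 2 times the counting error; 12 genes lie above the dashed line, among them H1f0 and Hist1h4n, and 4 lie under the solid one.

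No gene that processes histone mRNA, carries histones or modifies them was called after adjustment. Of 24 genes that process histone mRNA 3′ ends or turn it over, 12 were in the table and 9 were tested, 4 higher and 5 lower in I/R (median -0.04), with 0 at an unadjusted p under 0.05. Cpsf2, a subunit of the cleavage complex, was at 24.7, 26.9 and 23.7 FPKM in Sham against 24.5, 24.4 and 24.2 in I/R. Eri1, an exonuclease that degrades histone mRNA from its stem-loop, had means of 10.8 and 11.7 FPKM. Ncbp2, of the cap-binding complex, had the smallest p of the list, at -0.52 ± 0.31 (limma, adjusted p = 0.716).

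Histone chaperones carry histones to and from DNA. Of 32 chaperones and exchange factors, 16 were in the table and 11 tested, 6 higher and 5 lower, with 1 at an unadjusted p under 0.05. That was Rbbp7, a histone-binding subunit of chromatin complexes, at 1.67, 2.03 and 1.65 FPKM in Sham against 1.03, 1.11 and 0.68 in I/R. Its groups did not overlap (-0.52 ± 0.20, adjusted p = 0.559 in limma). Anp32e, which removes H2A.Z from nucleosomes, was at 2.33, 2.81 and 3.63 FPKM in Sham against 3.68, 5.11 and 4.41 in I/R (0.47 ± 0.21, adjusted p = 0.611 in limma). Nap1l4, a chaperone of the NAP1 family, was the most abundant of the list, at means of 22.8 and 17.3 FPKM (-0.36 ± 0.18).

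Among 32 genes of S phase and proliferation, 16 were in the table and 8 tested, 7 higher and 1 lower, with 1 at an unadjusted p under 0.05. This was Cdkn1a, which encodes the cell cycle inhibitor p21 and so does not act in the direction of the list's name. It was at 8.11, 14.8 and 10.5 FPKM in Sham against 14.1, 23.3 and 20.2 in I/R (0.74 ± 0.27, adjusted p = 0.527 in limma). Cdk1, the mitotic kinase, was the lower one (-0.48 ± 0.27, adjusted p = 0.676). The other 6 of the 8 differed by 0.01 to 0.23.

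Of 25 histone modifiers, 13 were in the table and 9 tested, 4 higher and 5 lower (median -0.02), with 0 at an unadjusted p under 0.05. Kat2b, an acetyltransferase, was the most abundant at means of 47.2 and 46.2 FPKM. Ep300, another acetyltransferase, was at 2.99, 4.25 and 5.35 FPKM in Sham against 1.48, 2.56 and 4.07 in I/R (-0.52 ± 0.32, adjusted p = 0.718 in limma). Of 11 RNAs known to lack a poly(A) tail, 2 were in the table, among the lncRNAs. Rmrp, the RNA of RNase MRP, was at 47607 to 56359 FPKM in Sham against 45308 to 50204 in I/R, and Terc, the telomerase RNA, was at means of 20.5 and 23.6. The lncRNA values had their own library totals, so they are not set beside histone levels. RNAs known to lack a tail were thus present in the selected RNA, and which histone transcripts carried a tail was not measured.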

How the data were processed

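RNA from 6 mouse hearts, 3 Sham and 3 I/R, was selected for poly(A) and sequenced, per the labels' protocols. The authors deposited FPKM per transcript, scaled by length and library total. Per the submitters' processing notes, the tools included HISAT2 2.1.0, HTSeq 0.10.0, fastp 0.23.0 and bcl2fastq 2.19.1.403, and the builds GRCm38, mm10 and GRCm39. No step, annotation or strand setting is given for them in the sources used here. Gene coordinates are the table's. For the genes with printed stretches they lie near those of RefSeq's GRCm38.p6, but the starts are not always the same. The RefSeq start of H1f0 is 79028212, against 79028450 for the gene in the deposited data. That of Hist2h2ac is 96220880 in both.

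After 40 repeated rows were dropped, FPKM were summed per gene. Whole reads were recovered from the deposited FPKM (within 0.001 of a whole number) for 11745 of 11745 protein-coding and 9413 of 9413 lncRNA transcripts. The limma 3.58.1 fit (R 4.3.3) used log2(FPKM + 1), group as the only factor, variances with a trend and Benjamini-Hochberg adjustment over 12114 genes averaging 0.5 FPKM or more (5041 protein-coding, 7073 lncRNAs). The test was two-sided with a threshold of 0.05, and the script was tested on simulated data. Promoters came from RefSeq, matched by gene ID. Tables and figures used Python 3.11.15, numpy 2.4.6, pandas 2.3.3 and matplotlib 3.10.9.

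The histone genes and the other lists were chosen with earlier results of these data known. All histone genes averaging 0.5 FPKM or more are named, and from each other list up to 4 genes with the smallest unadjusted p and the 2 most abundant could be named. Alternatives changed the pseudocount, filter, scaling, variance model or gene set, used limma voom on the recovered reads, the most abundant transcript or a replicate block, or left out each heart in turn. The fixed list of non-polyadenylated RNAs had 2 genes tested. Blood, endothelial, neutrophil and lymphocyte markers had 2, 2, 1 and 0 genes tested and are given as sums in the closing section.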

Additional observations from a re-analysis of the deposited data

How the results depend on the processing

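No histone gene and no other gene had an adjusted p under 0.05 (limma) in any of the 17 alternatives. The count of histone genes at an unadjusted p under 0.05, 2 as reported, was 4 with quantile normalization and 5 with protein-coding genes fitted alone. With quantile normalization the count over all genes was 1044 of 12114, against 1023 of 12114 in the main fit. With protein-coding genes fitted alone it was 455 of 5041, against 257 of the same 5041 genes in the main fit. Leaving out 1 heart gave 0 histone genes (without Sham heart 3) to 4 (without Sham heart 2 or I/R heart 3). Without Sham heart 1 the 3 genes were all lower in I/R (Hist1h3d, Hist1h3g and Hist4h4). Over all 12114 genes, leaving out 1 heart gave 808 to 1191. Histone genes higher in I/R numbered 22 to 30 with 1 heart left out. The log2 ratio of the replication-dependent sums lay between 0.05 (without I/R heart 1) and 0.24, that of the replacement sums between -0.08 and 0.06, and the difference in the replication-dependent share between 1.29 and 3.15 percentage points. Without the most abundant gene of each class that difference was 0.32 points instead of 1.96. Of 388 values for 23 named genes, 385 kept their direction and their side of the adjusted threshold. The 3 that changed sign were H1f0 at 0.011 without Sham heart 1, 0.047 without Sham heart 2 and 0.070 without I/R heart 2 (range with 1 heart left out -0.085 to 0.070); the cause was not tested. Hearts with the same number did not deviate together (r = 0.15, 0.03 and 0.03), so the numbers are not taken as pairs. With the replicate block, 3 histone genes (Hist1h3g, Hist1h3i and Hist1h4a) and 1125 of all genes had an unadjusted p under 0.05, against 1023 of all genes without it, and not every heart correlated best with its own number. Hist1h4a rested on 14 reads in Sham and 50 in I/R, while H1f0, with 7894 and 7050 reads, was not called either, and no detection limit was computed.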

Other observations

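Markers of further cell types were listed only in part, and a low listed FPKM does not show that a cell type is scarce. The 3 of 5 lymphocyte markers in the table (Cd3d, Cd3e and Cd79a) summed to 0.60 to 1.35 FPKM in Sham and 0.46 to 1.05 in I/R. The 2 of 4 neutrophil markers listed summed to 0 to 0.85 FPKM in Sham and 0.35 to 1.54 in I/R. The 2 of 5 blood markers listed summed to 1.86 to 6.54 FPKM in Sham and 1.09 to 6.20 in I/R. The 3 of 6 endothelial markers listed were higher, at sums of 93.4 to 122 FPKM in Sham and 113 to 143 in I/R. Kdr held most of this sum, at means of 102 FPKM in Sham and 129 in I/R. Emcn (2.74 and 2.56) and Egfl7 (0.40 and 0.12) had lower means in I/R. The lncRNA Gm15444 covers 304 bases of Hist2h2ab on the opposite strand, and their means differed in opposite directions. Hist2h2ab was at 4.55, 7.71 and 2.80 FPKM in Sham and 5.27, 4.05 and 2.59 in I/R, and Gm15444 was at 21.2, 32.3 and 17.8 FPKM in Sham and 43.1, 24.8 and 16.4 in I/R on the lncRNA scale. H2al1m, with 10 reads in Sham and 5 in I/R, lies within Xk on the same strand, which was at means of 11.5 and 13.3 FPKM, and H2al3 had 2 reads in all.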
